A study of Mus musculus with 4 samples.

Results

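The phagocyte NADPH oxidase is the enzyme with which macrophages and neutrophils make superoxide. The 8 genes described here were chosen by symbol and comprise 6 oxidase genes (Cybb, Cyba, Ncf1, Ncf4, Rac2 and Rac1) and both intracellular superoxide dismutases (Sod2 and Sod1). They are 8 of the 54532 genes in the deposited tables, and all 8 were among the 11640 that passed the filter on low counts. Polyadenylated RNA had been sequenced from RAW 264.7 cells, a mouse macrophage line, in 4 groups of 1 library each. The groups were Hnrnpul1-/- cells treated for 10 h with 100 ng/ml of LPS (lipopolysaccharide, the outer membrane glycolipid of Gram-negative bacteria), wild-type cells treated alike, untreated Hnrnpul1-/- cells and untreated wild-type cells. Hnrnpul1-/- cells are called knockout here; the sources used here do not say whether that line is a single clone.

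Cybb encodes the catalytic subunit, a haem-bearing flavoprotein that passes electrons from NADPH across the membrane to oxygen, and Cyba encodes the smaller membrane subunit that holds it stable. In resting phagocytes the organizer Ncf1 and the phosphoinositide-binding Ncf4 stay in the cytosol, and they join the membrane subunits together with an active Rac GTPase once the cell is triggered. Superoxide is turned to hydrogen peroxide by dismutases: Sod1 is the copper and zinc enzyme of the cytosol, and Sod2 the manganese enzyme of mitochondria, a known target of NF-kB in inflamed cells.

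The promoters of Cybb, Ncf1 and Sod2 are shown because these genes stand for a membrane subunit, a cytosolic subunit and the dismutase that differed most with LPS. Each line gives the 250 bases before the RefSeq start site in GRCm38.p6, 5′ to 3′ on the gene's strand. Capitals mark the letters of an interferon-stimulated element, GAAA, any 2 bases and GAAA, searched on both strands.
Cybb, chrX:9469325-9469574, minus strand: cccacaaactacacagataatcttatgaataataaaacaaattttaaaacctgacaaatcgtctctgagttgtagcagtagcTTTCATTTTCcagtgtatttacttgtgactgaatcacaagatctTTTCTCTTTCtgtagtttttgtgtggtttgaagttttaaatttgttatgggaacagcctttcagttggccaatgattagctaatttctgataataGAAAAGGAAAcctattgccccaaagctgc
Ncf1, chr5:134229626-134229875, minus strand: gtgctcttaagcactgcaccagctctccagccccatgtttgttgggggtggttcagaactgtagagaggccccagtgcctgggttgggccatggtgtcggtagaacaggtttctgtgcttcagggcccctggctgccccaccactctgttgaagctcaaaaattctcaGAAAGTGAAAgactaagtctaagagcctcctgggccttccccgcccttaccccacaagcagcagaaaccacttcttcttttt
Sod2, chr17:13007589-13007838, plus strand: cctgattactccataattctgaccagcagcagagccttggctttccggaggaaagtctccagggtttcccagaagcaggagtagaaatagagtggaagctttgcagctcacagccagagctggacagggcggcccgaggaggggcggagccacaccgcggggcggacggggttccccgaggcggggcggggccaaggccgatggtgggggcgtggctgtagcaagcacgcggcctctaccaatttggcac

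The Cybb window held 3 matches to these letters, whose nearest edges lay 20, 115 and 159 bases before the start, and the Ncf1 window held 1, from 82 to 73 bases before it. Of all 32851 promoter windows of this length in the table, 2.98% held these letters. The windows of Sod2, Cyba and Sod1 had no match. Also searched were an NF-kB type (GGG, any 3 bases and TTCC, in 4.65% of all windows) and a PU.1 and ETS type (GAGGAAG, in 10.6%). Neither exact string was found in the 5 windows read. Other forms of these sites were not searched, so their absence is not shown. The Cybb window was 34% G and C, against 63.6% for Sod2. The RefSeq starts of Cybb and Sod2 lie inside the gene spans of the deposited tables. A match is a description of letters and not of a bound site.

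Total counts ranged from 17045432 to 17909549 per library. The targeted gene Hnrnpul1 was at 21.7 CPM (counts scaled to the same library size with TMM factors) in LPS-treated knockout and 203 CPM in LPS-treated wild type, and at 23.1 CPM in untreated knockout and 268 CPM in untreated wild type, so each library matched its genotype label. Of 9 macrophage markers 8 passed the filter, while Mrc1, an alternative activation marker, had 0 to 2 reads. None of 10 neutrophil markers reached 1 CPM in any library, and 6 to 9 of them had 0 reads. Macrophage markers summed to 5625 CPM in LPS-treated knockout and 8380 CPM in LPS-treated wild type, and to 3137 and 3577 CPM in untreated knockout and wild type, and their part in the results was not tested. With LPS, 5 of the 8 markers past the filter were lower in knockout than in wild type and 3 were higher. Much of the gap lay in Lyz2, at 1245 CPM in knockout and 3334 CPM in wild type. Also lower were Csf1r (499 CPM in knockout and 803 CPM in wild type), Cd14 (2641 CPM and 3011 CPM), Fcgr1 (361 CPM and 474 CPM) and Cd68 (152 CPM and 183 CPM). Adgre1 (217 CPM in knockout and 128 CPM in wild type), Itgam (154 CPM and 125 CPM) and Ptprc (356 CPM and 323 CPM) were higher in LPS-treated knockout. The 6 lymphocyte and 5 fibroblast or epithelial markers each summed to at most 0.31 CPM. Every value below rests on 1 library a group, so the 95% intervals cover counting error alone and no difference between libraries has a replicate check. PCR copies were not marked, so the intervals may be too narrow even for counting error.

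Per length, the membrane subunits and Rac2 led in all 4 libraries. With LPS, Cybb stood at 381 CPM per kb in knockout and 373 in wild type, followed in knockout by Cyba at 301 and Rac2 at 295 and in wild type by Cyba at 276 and Rac2 at 249. Untreated, Cyba was first at 203 CPM per kb in knockout and 211 in wild type, ahead of Cybb at 151 and Rac2 at 143 in knockout and of Cybb at 149 and Rac2 at 142 in wild type. These 3 genes lay between percentiles 97.5 and 98.8 of all tested genes per length in every library.

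**Figure D1:**
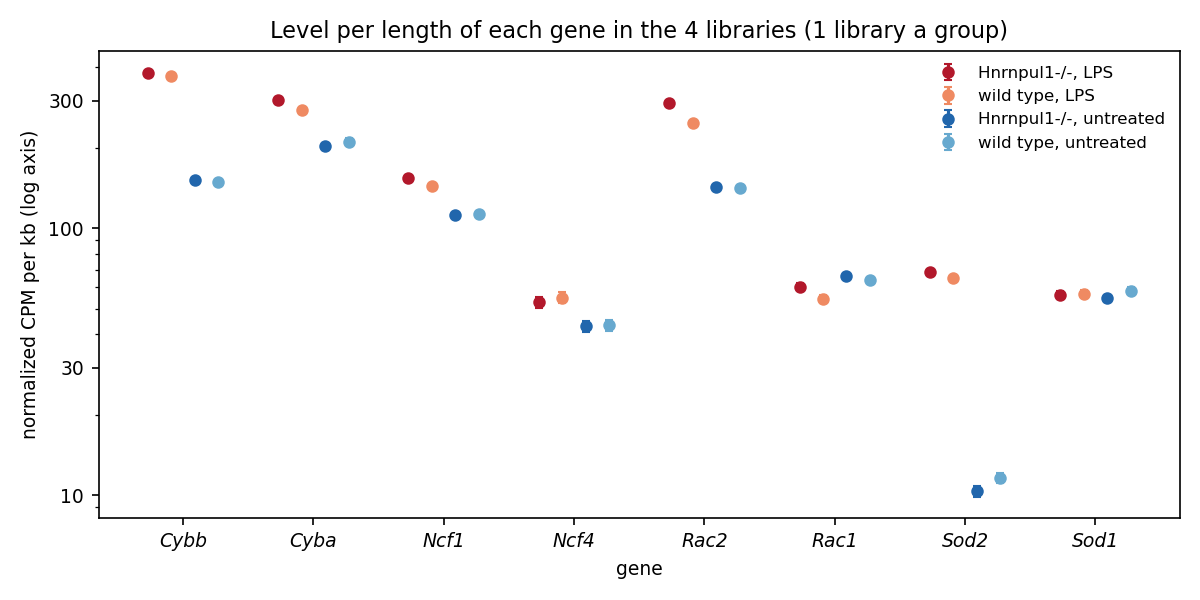
Normalized CPM per kb (log axis) of the 8 genes in LPS-treated knockout, LPS-treated wild type, untreated knockout and untreated wild type, 1 library each; bars are 95% counting intervals, often smaller than the points. Sod2 stood at 68.4 in knockout and 64.9 in wild type with LPS, and at 10.3 in knockout and 11.6 in wild type untreated, and Sod1 between 54.5 and 58.4 in all 4 libraries.

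Ncf1 came next in every library, at 154 CPM per kb in LPS-treated knockout and 143 in LPS-treated wild type, and, without LPS, at 112 in knockout and 113 in wild type. Rac1, Sod1, Ncf4 and, with LPS, Sod2 followed between 42.9 and 68.4 CPM per kb. Untreated Sod2 was last at 10.3 CPM per kb in knockout and 11.6 in wild type. Neighbours in this order whose intervals overlapped were Cyba and Rac2, and Sod1 and Ncf4, in LPS-treated knockout, and Sod1 and Ncf4, and Ncf4 and Rac1, in LPS-treated wild type. Untreated, no neighbours overlapped.

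The place of Sod1 in this order depends on the length used. The deposited length of Sod1, 3970 bases, is that of a retained-intron transcript in GENCODE M21, while its longest coding transcript has 641. Per longest coding transcript Sod1 ranked 1 among the 8 genes in untreated cells, at 338 CPM per kb in knockout and 362 in wild type, and 3 with LPS, at 348 in knockout and 352 in wild type. Sod2, whose lengths are 10008 and 5861 bases, stayed last untreated, at 17.6 in knockout and 19.8 in wild type.

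Shared sequence also limits some levels. On the 50-base scale, Cybb, Cyba and Ncf4 shared no stretch of their longest coding transcripts with another annotated gene, and Rac1 and Rac2 shared none with each other. Of the Rac1 positions 55.0% also lay in the overlapping gene Daglb on the opposite strand, which had 567 and 462 reads in LPS-treated knockout and wild type and 1043 and 898 in untreated knockout and wild type. Sod1 shared 23.1% of positions with Gm8566, and Ncf1 8.15% with its overlapping neighbour Gtf2ird2 and with Zhx3 together. The sources used here do not say if reads were counted by strand, so reads from these stretches cannot be assigned with certainty.

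With LPS the catalytic subunit, the mitochondrial dismutase and, in knockout, the blood cell GTPase stood at more than 2-fold their untreated level. A gene was called when 2 libraries differed at least 2-fold and the interval of the log2 ratio did not include 0. In knockout 3 of 8 genes (Sod2, Cybb and Rac2) were called higher, where 11.6% of all tested genes were, and in wild type 2 of 8 (Sod2 and Cybb), where 11.2% were. None was called lower, against 12% of all tested genes in knockout and 10.1% in wild type. The median log2 ratio of the 8 genes was 0.52 in knockout and 0.37 in wild type, against -0.02 in knockout and -0.004 in wild type over all tested genes. Scaling by total counts moved the median of all tested genes to -0.33 in knockout and -0.30 in wild type. Under it the median of the 8 genes was 0.21 in knockout and 0.07 in wild type. Cyba then stood at 0.26 in knockout and 0.09 in wild type, Ncf1 at 0.16 and 0.05, Ncf4 at -0.02 and 0.04, and Sod1 at -0.27 and -0.33 in these genotypes, while no called gene among the 8 changed direction. In bulk RNA, fewer cells that carry a transcript and less of it per cell cannot be told apart.

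**Figure D2:**
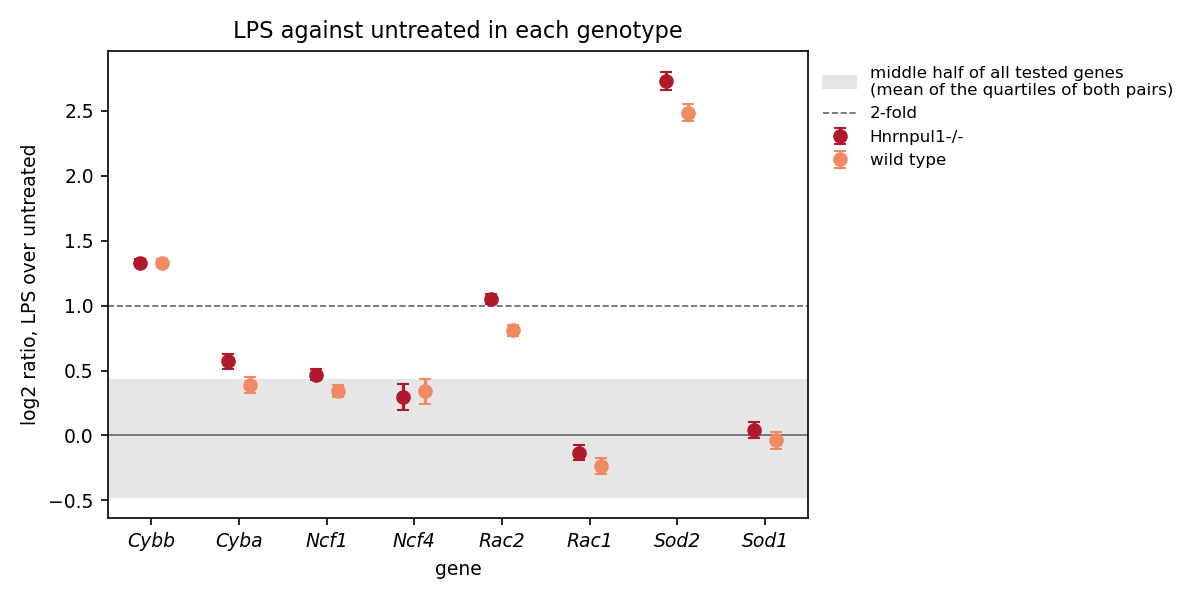
Log2 ratio of LPS-treated over untreated cells for the 8 genes in knockout and wild type, with 95% counting intervals. The band runs from the lower to the upper quartile of all tested genes, each averaged over both genotypes, and the dashed line marks 2-fold. Sod2 (2.73 in knockout and 2.49 in wild type) and Cybb (1.33 in both) lie above 2-fold in both genotypes and Rac2 in knockout alone.

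Among the membrane subunits, Cybb (ENSMUSG00000015340, chrX:9435252-9487771, GRCm38) had 2211 CPM in LPS-treated knockout and 2167 CPM in LPS-treated wild type, against 879 CPM in untreated knockout and 863 CPM in untreated wild type. Both LPS libraries lay above both untreated ones, with log2 ratios of 1.33 (1.30 to 1.36) in knockout and 1.33 (1.30 to 1.35) in wild type, or 2.51-fold in each. Cybb alone took 0.199% of all counts in LPS-treated knockout and 0.195% in LPS-treated wild type, against 0.0981% and 0.0956% in untreated knockout and wild type. Its partner Cyba (ENSMUSG00000006519, chr8:122424776-122432930) had 313 and 287 CPM in LPS-treated knockout and wild type, against 211 and 219 CPM in untreated knockout and wild type. Its log2 ratios were 0.57 (0.51 to 0.63) in knockout and 0.39 (0.33 to 0.45) in wild type, both under the 2-fold rule.

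The cytosolic subunits Ncf1 and Ncf4 differed little with LPS. Ncf1 (ENSMUSG00000015950, chr5:134220053-134229625) had 566 and 526 CPM in LPS-treated knockout and wild type, against 409 and 414 CPM in untreated knockout and wild type, and log2 ratios of 0.47 (0.42 to 0.51) in knockout and 0.34 (0.30 to 0.39) in wild type. Ncf4 (ENSMUSG00000071715, chr15:78244801-78262580) had 106 and 111 CPM in LPS-treated knockout and wild type, against 86.7 and 87.5 CPM in untreated knockout and wild type. Its log2 ratios were 0.29 (0.20 to 0.39) in knockout and 0.34 (0.24 to 0.44) in wild type. For both genes the LPS libraries lay above the untreated ones by less than 1.5-fold, and 58.4% of all tested genes in knockout and 60.2% in wild type lay within 1.5-fold.

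The Rac GTPases stood on opposite sides of 0. Rac2 (ENSMUSG00000033220, chr15:78559167-78572783), the form of blood cells, had 915 and 771 CPM in LPS-treated knockout and wild type, against 443 and 440 CPM in untreated knockout and wild type. Its log2 ratio was 1.05 (1.01 to 1.09) in knockout, just past the 2-fold rule, and 0.81 (0.77 to 0.85) in wild type, just under it; scaled by total counts the knockout ratio was 0.74 and not called. Rac1 (ENSMUSG00000001847, chr5:143503634-143528036), the ubiquitous form, had 271 and 244 CPM in LPS-treated knockout and wild type, against 297 and 287 CPM in untreated knockout and wild type. Its log2 ratios were -0.13 (-0.19 to -0.07) in knockout and -0.23 (-0.29 to -0.17) in wild type. The overlapping gene Daglb had fewer reads with LPS in both genotypes, and its part in the Rac1 value was not tested. Rac2 lies 297 kb from Ncf4 on chromosome 15, with 17 annotated genes between them.

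Sod2 had the largest LPS ratio of the 8 genes. Sod2 (ENSMUSG00000006818, chr17:13006846-13040063) had 684 and 650 CPM in LPS-treated knockout and wild type, against 103 and 116 CPM in untreated knockout and wild type. The ratios were 6.63-fold in knockout (log2 2.73, 2.66 to 2.80) and 5.60-fold in wild type (2.49, 2.42 to 2.55). Among the 11640 tested genes 378 had a higher ratio in knockout and 433 in wild type, while for Cybb these numbers were 966 and 949. Sod1 (ENSMUSG00000022982, chr16:90220754-90226329) had 223 and 226 CPM in LPS-treated knockout and wild type, against 216 and 232 CPM in untreated knockout and wild type. Its log2 ratios, 0.04 (-0.02 to 0.11) in knockout and -0.04 (-0.10 to 0.03) in wild type, had intervals that include 0.

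An additive model over the 4 libraries, with genotype as a block, is the only fit with a residual degree of freedom (1), and it takes the difference between the LPS responses of the genotypes as error. In it, by edgeR's quasi-likelihood test with Benjamini-Hochberg adjustment over all 11640 genes, 6 of 8 genes rose with LPS, where 30.2% of all tested genes did, and 1 fell, where 30.1% did. The adjusted p was 1.15e-07 for Sod2, 7.9e-07 for Cybb, 1.98e-05 for Rac2, 0.00069 for Cyba, 0.00109 for Ncf1 and 0.00546 for Ncf4. Rac1 fell by 0.18 on the log2 scale with an adjusted p of 0.0475, which did not hold with DESeq2 size factors (0.0661) or DESeq2's Wald test (0.268) and was 0.0353 with a mean CPM of at least 10. For Sod1 the adjusted p was 0.98 at a log2 ratio of 0.002.

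None of the 8 genes differed by 2-fold between genotypes. In LPS-treated cells 0 of 8 were called between knockout and wild type, where 3.49% of all tested genes were, and in untreated cells 0 of 8, where 2.01% were. The median size of the log2 ratio over the 8 genes was 0.09 with LPS and 0.04 untreated, against 0.15 with LPS and 0.11 untreated over all tested genes. In the additive model none of the 8 had an adjusted p under 0.05 for genotype by edgeR's quasi-likelihood test, where 1.92% of all tested genes did. The smallest unadjusted p there was 0.134, for Rac2, so none passed without adjustment either, and DESeq2's Wald test likewise called none.

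**Figure D3:**
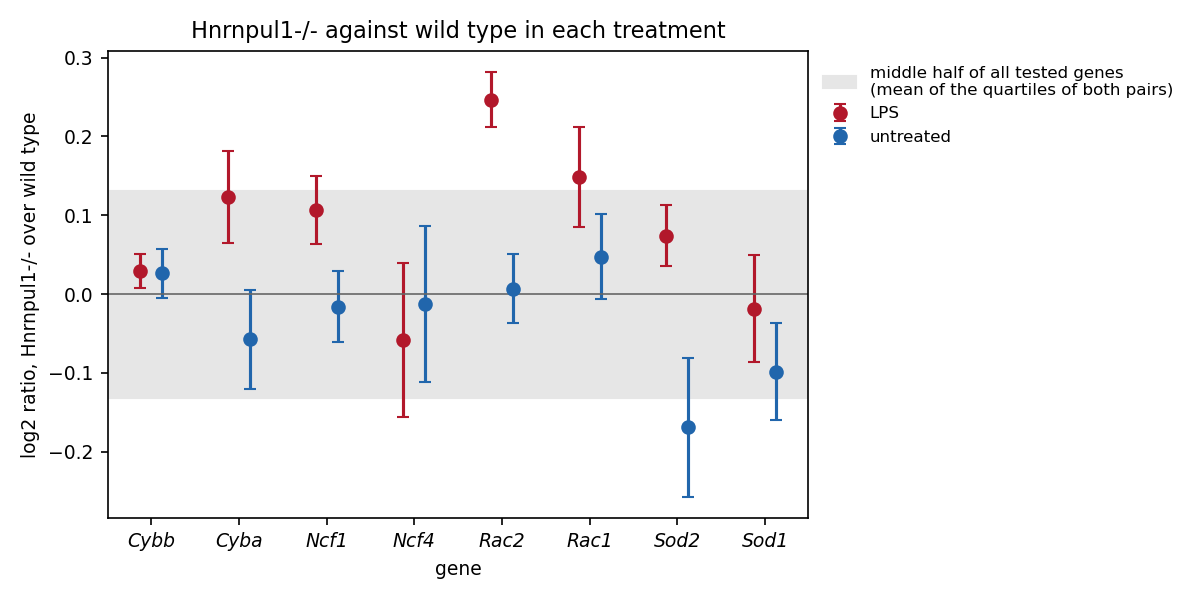
Log2 ratio of knockout over wild type for the 8 genes, in LPS-treated and in untreated cells, with 95% counting intervals. The band runs from the lower to the upper quartile of all tested genes, each averaged over both treatments. With LPS, Rac2 is highest at 0.25, and untreated, Sod2 is lowest at -0.17.

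Within these small differences, counting intervals lay above 0 for 6 of 8 genes in LPS-treated cells, where this held for 20.1% of all tested genes, and below 0 for none, against 20.1%. Genes with fewer reads have wider intervals. Rac2 had the largest difference, a log2 ratio of 0.25 (0.21 to 0.28), which is a 1.19-fold higher level in knockout. Rac1 followed at 0.15 (0.09 to 0.21), Cyba at 0.12 (0.06 to 0.18), Ncf1 at 0.11 (0.06 to 0.15), Sod2 at 0.07 (0.04 to 0.11) and Cybb at 0.03 (0.01 to 0.05). The size of the Rac2 ratio was above that of 66.95% of all tested genes.

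In untreated cells the interval lay above 0 for 0 of 8 genes, against 15.8% of all tested genes, and below 0 for 2, against 15.2%. Those were Sod2 at -0.17 (-0.26 to -0.08) and Sod1 at -0.10 (-0.16 to -0.04). Cybb, Ncf1, Ncf4 and Rac2 lay within 0.03 of 0 on the log2 scale, from -0.02 for Ncf1 to 0.03 for Cybb.

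The LPS ratio of knockout minus that of wild type was called for 0 of 8 genes, where 3.01% of all tested genes were. Its median size on the log2 scale was 0.11 over the 8 genes, against 0.16 over all tested genes. Its interval lay below 0 for none, against 15.7% of all tested genes, and above 0 for 5 of 8, against 13.9%: Sod2 at 0.24 (0.15 to 0.34), Rac2 at 0.24 (0.18 to 0.30), Cyba at 0.18 (0.10 to 0.27), Ncf1 at 0.12 (0.06 to 0.18) and Rac1 at 0.10 (0.02 to 0.18). For Cybb it was 0.003 (-0.03 to 0.04), so the 2 LPS ratios of the catalytic subunit were within counting error of each other. These values are built from the same 4 libraries as the genotype ratios and add no independent measurement. Since genes with fewer reads have wider intervals, the shares of all tested genes are not taken at equal read numbers.

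Ratios of 2 genes within 1 library do not depend on how libraries are scaled against each other. Per length, Cybb stood at 1.26 times Cyba in LPS-treated knockout and 1.35 times in LPS-treated wild type, against 0.747 and 0.705 times in untreated knockout and wild type. The catalytic subunit thus had more reads per kb than its partner with LPS and fewer without, and the ratio was 1.69-fold higher (1.62 to 1.77) with LPS in knockout and 1.92-fold higher (1.83 to 2.01) in wild type. Rac2 stood at 4.89 and 4.57 times Rac1 in LPS-treated knockout and wild type, against 2.16 and 2.22 times in untreated knockout and wild type.

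**Figure D4:**
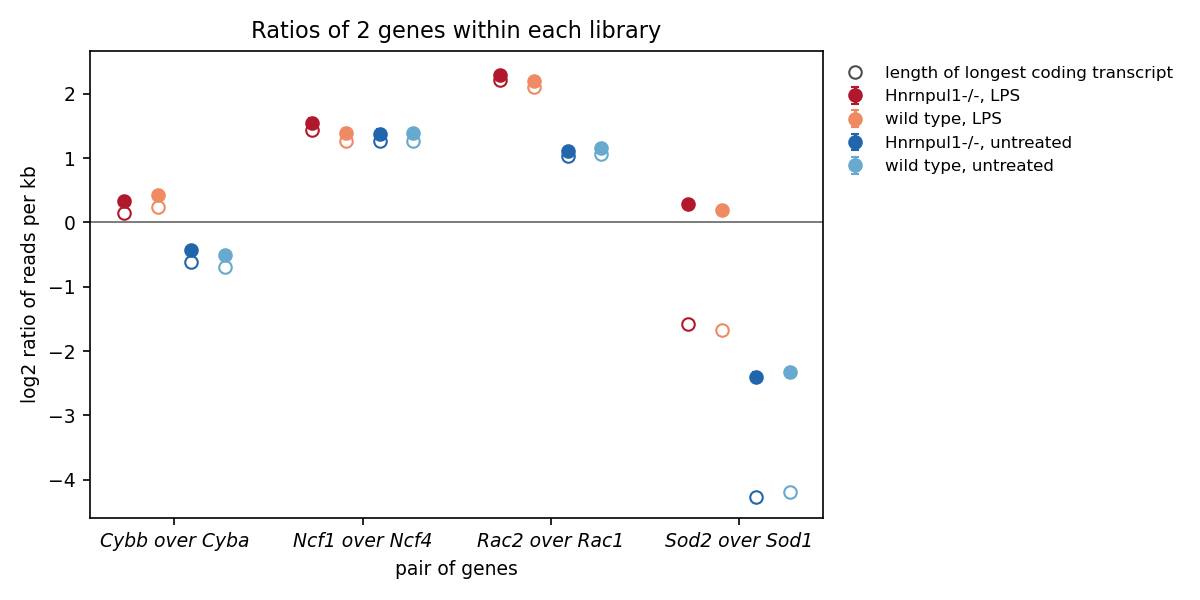
Log2 ratio of reads per kb of 2 genes within each library, with 95% counting intervals, by the deposited gene lengths (filled) and by the longest coding transcript (open). Sod2 over Sod1 lies at 0.28 in knockout and 0.19 in wild type with LPS, and at -2.40 in knockout and -2.33 in wild type untreated, by the deposited lengths, and below 0 in all 4 libraries by coding transcripts.

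The balance of the dismutases differed most. Reads per kb of Sod2 were 1.22 and 1.14 times those of Sod1 in LPS-treated knockout and wild type, against 0.189 and 0.199 times in untreated knockout and wild type. The ratio was 6.44-fold higher (6.03 to 6.87) with LPS in knockout and 5.75-fold higher (5.39 to 6.13) in wild type. By the longest coding transcripts Sod2 stayed below Sod1 with LPS, at 0.336 times in knockout and 0.315 times in wild type, while the fold with LPS does not depend on length. Ncf1 over Ncf4 varied least, at 2.93 and 2.62 times in LPS-treated knockout and wild type and at 2.60 and 2.61 times in untreated knockout and wild type.

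The genes with the most similar pattern were found by the Euclidean distance between log2 levels over the 4 libraries, centred per gene, among 8478 other protein-coding genes whose mean level was 10 CPM or more. Within a distance of 0.3 lay 33 genes for Sod2, 247 for Cybb, 423 for Rac2 and 2827 for Sod1. The nearest to Sod2 were Smim3 (distance 0.05), Nlrc5 (0.09) and Nfkbia (0.14), and the nearest to Cybb were Esyt1 (0.04), Pi4k2b (0.05) and Tank (0.05). Socs7, Ier5 and Fbxw11 were nearest to Rac2 (0.04 to 0.05), Snx1, Kdm5c and Slc30a6 to Cyba (0.01 to 0.04), and Capzb, Ppp2r1a and Arpc3 to Ncf1 (0.02 each). Pja2, Rabep1 and Capn10 were nearest to Ncf4 (0.007 to 0.014), Ppp1cc, Polr2h and Nptn to Rac1 (0.01 to 0.02), and Sart1, Taf10 and Jmy to Sod1 (0.006 to 0.016). Among the 8 genes themselves, Cyba and Ncf1 were the closest pair (0.08) and Sod2 and Rac1 the most distant (2.79). Since 4 libraries give 3 free values per gene, such closeness is a description.

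Genes that work with the oxidase were read from fixed lists. Of 15 oxidase partners and homologs 6 passed the filter, with median LPS log2 ratios of 0.18 in knockout and 0.40 in wild type; 1 was called higher and 2 lower in each. Over all tested genes the medians were -0.02 in knockout and -0.004 in wild type, with 11.6% called higher and 12% lower in knockout and 11.2% higher and 10.1% lower in wild type. Rap1b, a small GTPase related to the one that copurifies with the membrane subunits, was called higher in both genotypes (1.68 in knockout and 1.60 in wild type). Called lower in both were Hvcn1, the proton channel that balances charge during the burst, on 12 and 7 reads in LPS-treated knockout and wild type against 68 and 39 in untreated knockout and wild type (-2.24 in knockout and -2.17 in wild type), and Rac3 (-1.32 in knockout and -1.44 in wild type). Cybc1, a chaperone of the membrane subunits, had ratios of 0.06 (-0.09 to 0.20) in knockout and 0.43 (0.29 to 0.57) in wild type. The homologs Nox3, Nox4, Duox1 and Duox2 had 0 reads in every library, and Nox1 had 1 and 2 in LPS-treated knockout and wild type and 7 and 6 in untreated knockout and wild type.

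Of 24 kinases and Rac regulators 22 passed the filter, with median ratios of 0.17 in both genotypes; 3 were called higher and 3 lower in knockout, and 0 higher and 2 lower in wild type. These shares of 22 lie near those of all tested genes in knockout (11.6% higher and 12% lower) and, for lower calls, in wild type (10.1%). For higher calls in wild type the share of all tested genes was 11.2%. Racgap1, a Rac GTPase-activating protein of cell division (-2.02 in knockout and -2.24 in wild type), and Arhgap15 (-1.17 in knockout and -1.03 in wild type) were lower in both. Prkcd, a kinase that phosphorylates Ncf1 (1.02 in knockout and 0.90 in wild type), and Syk, a kinase of phagocytic receptors (1.07 in knockout and 0.99 in wild type), lay around the 2-fold rule, and Pak1 was called lower in knockout (-1.41, against -0.90 in wild type, a difference that was not called). Tiam1, a Rac exchange factor, was the one gene of this list called between genotypes, lower in knockout with LPS (-1.61, -2.38 to -0.89; 22 against 64 reads) and untreated (-2.40, -3.43 to -1.49; 12 against 62 reads). Over all tested genes 3.49% were called between genotypes with LPS and 2.01% untreated. Tiam1 was also called higher with LPS in knockout (1.14, 0.06 to 2.29).

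**Figure D5:**
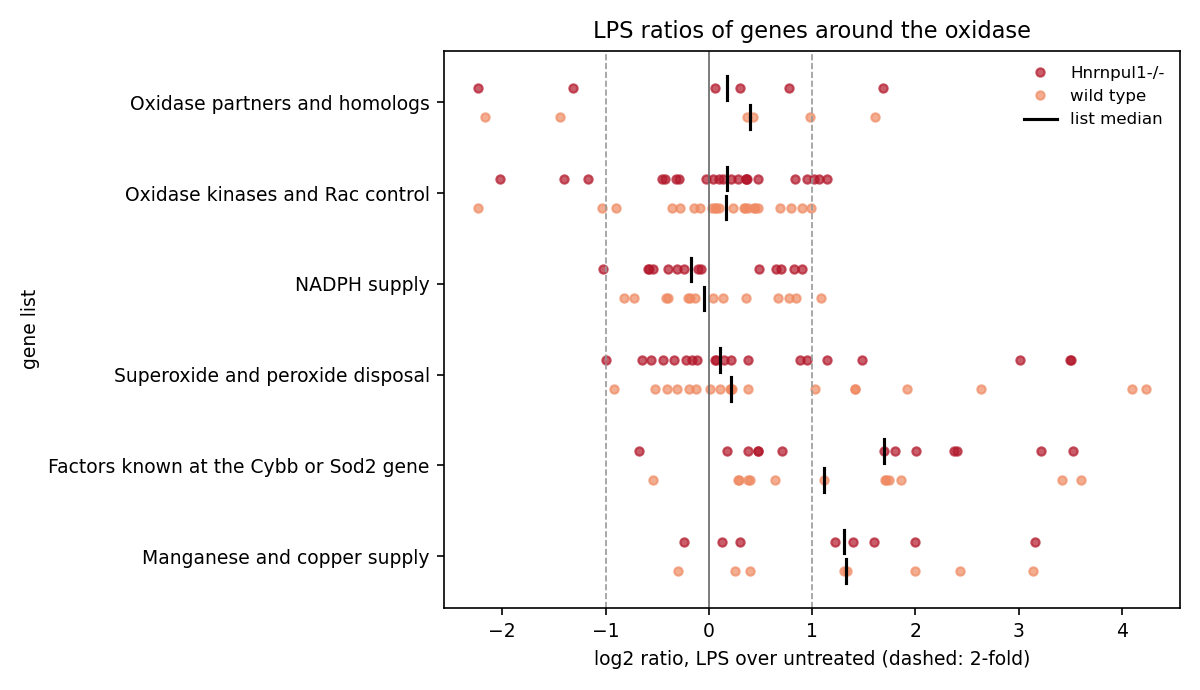
LPS log2 ratios of the tested genes of 6 lists around the oxidase, knockout above wild type in each list, with the list median as a black bar and dashed lines at 2-fold. Medians of the factors known at Cybb or Sod2 (1.69 in knockout and 1.11 in wild type) and of manganese and copper supply (1.31 in knockout and 1.32 in wild type) lie past 2-fold, those of the other 4 lists between -0.17 and 0.40.

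Of 15 NADPH supply genes 14 passed, with median ratios of -0.17 in knockout and -0.05 in wild type. G6pdx, the first enzyme of the pentose phosphate pathway, was called higher in wild type (1.09, against 0.82 in knockout) and mitochondrial Idh2 lower in knockout (-1.02, against -0.83 in wild type). They were the only LPS calls of this list. Of all tested genes 11.6% were called higher and 12% lower in knockout, and 11.2% and 10.1% in wild type. Between genotypes none was called, against 3.49% of all tested genes with LPS and 2.01% untreated. The largest in size was Idh1, the cytosolic isocitrate dehydrogenase, at -0.97 (-1.07 to -0.87) with LPS and -0.30 untreated. With LPS 11 of the 14 lay below 0 between knockout and wild type, with a median of -0.14. Over all tested genes 50.2% lay above 0 in this comparison, with a median of 0.001.

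Superoxide and peroxide disposal genes numbered 20 past the filter of 22, with median LPS ratios of 0.11 in knockout and 0.21 in wild type; 5 were called higher in knockout and 7 in wild type, and 0 lower, against 11.6% of all tested genes higher in knockout and 11.2% in wild type, and 12% and 10.1% lower. Slc7a11, the cystine importer (3.50 in knockout and 4.24 in wild type), Glrx, a glutaredoxin (3.49 in knockout and 4.10 in wild type), Prdx5, a peroxiredoxin (3.01 in knockout and 2.64 in wild type), Srxn1, sulfiredoxin (1.48 in knockout and 1.92 in wild type), and Gclm, a subunit of the glutathione-making ligase (1.14 in knockout and 1.42 in wild type), were called in both. Txnrd1 (1.42) and Prdx1 (1.03) were called in wild type, against 0.95 and 0.88 in knockout. Sod3, the extracellular dismutase, had 0 reads in every library, and Ccs, the copper chaperone of Sod1, had ratios of -0.44 in knockout and -0.40 in wild type. Between knockout and wild type with LPS, 15 of the 20 lay below 0 and the median was -0.16, with no gene called. Over all tested genes 50.2% lay above 0 there, the median was 0.001 and 3.49% were called. Of the 20 genes Cat, catalase, was lowest at -0.67 (-0.79 to -0.56).

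Of 16 factors known to act at the Cybb or Sod2 gene 13 passed the filter. With LPS 7 of these were called higher in each genotype, against 11.6% of all tested genes in knockout and 11.2% in wild type. Of the 13 factors 0 were called lower, against 12% in knockout and 10.1% in wild type. Their median ratios were 1.69 in knockout and 1.11 in wild type, and those called included Cebpd (3.53 in knockout and 3.60 in wild type), Irf8 (2.40 in knockout and 1.71 in wild type) and Nfkb2 (2.37 in knockout and 1.72 in wild type). Nfkb1 (2.0 in knockout and 1.75 in wild type), Irf1 (1.81 in knockout and 1.86 in wild type) and Cebpb (1.69 in knockout and 1.11 in wild type) were called too. Spi1, which encodes PU.1, had ratios of 0.47 in knockout and 0.40 in wild type and Rela 0.47 in knockout and 0.28 in wild type. None was called between genotypes, against 3.49% of all tested genes with LPS and 2.01% untreated. Nfkb2 (0.86, 0.79 to 0.93) and Irf8 (0.71, 0.66 to 0.76) had the largest ratios of knockout over wild type with LPS, and Cebpb the lowest untreated (-0.71, -0.84 to -0.58).

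The manganese and copper supply list holds genes that handle the metals of Sod2 and Sod1, and delivery of metal to either enzyme was not measured. Of 10 listed 8 passed, with median LPS ratios of 1.31 in knockout and 1.32 in wild type. With LPS 0 were called lower, against 12% of all tested genes in knockout and 10.1% in wild type. Called higher were 5 in each genotype, against 11.6% of all tested genes in knockout and 11.2% in wild type. These were Slc31a2, a copper transporter (3.16 in knockout and 3.14 in wild type), Slc11a2 (2.0 in both genotypes) and Slc11a1 (1.60 in knockout and 2.44 in wild type), divalent metal transporters, and the copper pumps Atp7a (1.22 in knockout and 1.34 in wild type) and Atp7b (1.40 in knockout and 1.31 in wild type, on 16 to 35 reads). Slc39a14, a manganese and zinc importer, had ratios of 0.30 in knockout and 0.25 in wild type, and Slc39a8 had 0 reads. Slc11a1 was the one gene of this list called between genotypes, at 17.4 CPM in LPS-treated knockout and 38.2 CPM in LPS-treated wild type (-1.13, -1.34 to -0.93), against 5.73 CPM and 7.05 CPM in untreated knockout and wild type. With LPS 3.49% of all tested genes were called between genotypes. Untreated, all 8 tested genes of the list lay below 0 between knockout and wild type, with a median of -0.14 and none called. Over all tested genes 51.8% lay above 0 untreated, with a median of 0.006 and 2.01% called.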

How the data were processed

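The authors deposited, per the file headers, a read count per gene and an FPKM value for each library. The deposited counts are whole numbers and not normalized. The deposited FPKM equal the count over gene length and a constant per library, 0.927 to 1.16 times its total. Per the submitters' processing notes CASAVA 1.8, HISAT2 2.0.5 and featureCounts 1.5.0-p3 were used, with builds GRCm38 and mm10. Polyadenylated RNA was enriched with oligo-dT beads, per the labels' protocols. The sources used here do not say if counting used strand.

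Tests covered the 11640 genes whose CPM averaged 1 or more over the 4 libraries. Counts were scaled by TMM (edgeR 4.0.16, R 4.3.3; factors 0.899 to 1.12). Ratios of 2 libraries have exact conditional 95% intervals and differences of ratios delta-method ones; counts of 0 were set to 3 in ratios. The additive model used edgeR's quasi-likelihood test, with DESeq2 1.42.0 as an alternative. Levels per kb use the deposited gene length. Gene coordinates are those of the deposited tables; 98.3% of genes shared with GENCODE M21 have the same ones there. Promoters are from RefSeq (GRCm38.p6), matched by symbol for 5 of the 8 genes.

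The 8 genes and all lists were chosen with earlier results of these data known. Named beside the 8 genes were the 3 genes of nearest pattern to each and, from each list, called members (at most 4 per direction and comparison) and those of largest ratio; other list members were named for their role, after their values were seen. Some list members counted in the text are not reported here by name.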

Additional observations from a re-analysis of the deposited data

How the results depend on the processing

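With 1 library a group no replicate could be left out, and no paired analysis was possible because the labels give no replicate numbers and each group has 1 sample. Of 320 calls on ratios of the 8 genes under 8 alternatives, 318 matched the call of the main processing and none that was called changed sign. Called in the main processing were only the LPS ratios of Sod2 and Cybb in both genotypes and of Rac2 in knockout. Most of the 320 thus concern ratios uncalled there, and a match was likely from the start. A 1.5-fold rule was among the alternatives, and it moved the threshold and not the ratios. Rac2 in knockout with LPS dropped under the 2-fold rule by total counts (0.74), and Rac2 in wild type with LPS passed the 1.5-fold rule (0.81). Scaling by total counts moved the median of all genes with LPS to -0.33 in knockout and -0.30 in wild type, and the share of calls that were higher to 31.4% in knockout and 33.9% in wild type, against 49.0% in knockout and 52.6% in wild type with TMM. Under it Ncf4 (-0.02) and Sod1 (-0.27) in knockout lay below 0 with LPS, both uncalled. With LPS 2 or 3 of the 8 genes were called in each genotype under every alternative run, and 0 in the other 3 comparisons.

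Counts of all genes called depended on the rule and the filter, by construction where fewer genes are tested or a smaller fold is asked. With a mean CPM of at least 10 they were 1709 and 1568 for LPS in knockout and wild type, 101 and 43 for genotype with LPS and untreated, and 62 for the difference of LPS ratios. With a 1.5-fold rule they were 4695 and 4432, 987 and 569, and 754. Without a filter genotype gave 786 with LPS and 567 untreated, and the difference of LPS ratios 572; with protein-coding genes alone that difference gave 232. The deposited FPKM as log2(value + 1), called by fold alone, gave 1820 for LPS in knockout, and 197 and 107 for genotype with LPS and untreated; of the calls in the difference of LPS ratios 51.6% were higher there, against 39.1%. DESeq2's Wald test gave 133 genes for genotype in the additive model, against 223 with edgeR.

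Lengths of the longest coding transcripts, an alternative chosen after seeing the data, moved every within-library log2 ratio. In LPS-treated knockout, LPS-treated wild type, untreated knockout and untreated wild type, Cybb over Cyba became 0.15, 0.24, -0.61 and -0.70, Ncf1 over Ncf4 1.43, 1.27, 1.26 and 1.26, and Rac2 over Rac1 2.21, 2.11, 1.03 and 1.07. Sod2 over Sod1 became -1.57 and -1.67 with LPS, on the other side of 0, and -4.26 and -4.19 untreated.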
